A study of Mus musculus with 8 samples.

Results

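The EPSC-NSC hybrid cells were compared with the extended pluripotent stem cells (EPSCs) from which they were made, over the 11662 genes, of 24354 listed, whose mean FPKM was at least 1 in either group. FPKM counts the sequenced fragments of a gene and divides them by its length and by the depth of the library. The series held 8 poly-A RNA sequencing libraries, 2 each of hybrid cells, EPSCs, neural stem cells (NSCs) and E14 embryonic stem cells (ESCs), and the test of this comparison used the 4 hybrid and EPSC libraries. The EPSC line, labelled as wild type, was derived from 8-cell embryos of C57BL/6 mice and was collected at passage 15. The E14 ESCs were labelled as wild type as well. The hybrid line EPNSC_2-2, collected at passage 10 and labelled as tetraploid, arose from polyethylene glycol fusion of EPSCs with OG2/ROSA26 NSCs. These NSCs are heterozygous for both transgenes, GFP under the distal enhancer of Oct4 and a ubiquitous lacZ. Both lines were grown in the same medium, N2B27 with the LCDM supplement (the cytokine LIF, the GSK3 inhibitor CHIR99021, the antihistamine dimethindene maleate and the antibiotic minocycline), on feeder layers of C3H mouse embryonic fibroblasts inactivated with mitomycin C. Each group was therefore a single line, and line, passage and fusion cannot be told apart in this comparison. The ESCs were grown on inactivated mouse embryonic fibroblasts in serum medium with LIF. The NSCs were grown on gelatin in a medium with epidermal and basic fibroblast growth factors. Levels in ESCs and NSCs thus differ from those in the compared lines by medium as well as by cell type.

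Extended pluripotent cells resemble ESCs in their core transcription factors but can contribute to embryonic as well as extraembryonic tissues. When a somatic cell is fused with a pluripotent cell, its nucleus usually loses its own expression programme and takes on that of the pluripotent partner. Cultured cells also adjust their metabolism to amino acid, oxygen and sterol supply through a few transcription factors, among them ATF4, the hypoxia-inducible factors and SREBP2, so that the targets of each factor can be read as a group.

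The estimated depth was 23.8 and 22.6 for the hybrid libraries and 21.8 and 22.8 for the EPSC libraries, in units of 1000000 fragments. The median absolute difference between repeated libraries on the log2(FPKM + 1) scale was 0.135 for hybrid cells and 0.12 for EPSCs, compared with 0.262 between the means of both groups. The factors that define pluripotent cells were expressed in both groups. Pou5f1, which encodes OCT4, was at 1009 and 741.6 FPKM in hybrid cells and 948.7 and 790.2 FPKM in EPSCs, and Nanog was at 315.0 and 326.7 against 351.8 and 334.1 FPKM. Fabp7, a brain lipid-binding protein, is among the markers that define NSCs. It was at 2798 and 2709 FPKM in NSCs and at 0.0761 and 0.238 FPKM in hybrid cells. The summed FPKM of 28 NSC markers in hybrid cells was 1.19% of that in NSCs. That sum was 5807 and 5729 FPKM in NSCs, so Fabp7 made up much of it. Over the 12 markers above the filter, the median FPKM was 3.485 and 3.326 in hybrid cells and 72.48 and 75.41 in NSCs. Both groups carried RNA of fibroblast markers and their levels are given with the matrix genes.

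With limma on log2(FPKM + 1) and a Benjamini-Hochberg adjusted p under 0.05, 3388 genes (29.1% of those tested) differed between hybrid cells and EPSCs. Of these, 1687 (14.5%) were higher and 1701 (14.6%) were lower in hybrid cells, and the median difference over all genes was -0.01. Most differences were small. Only 457 genes (3.92%) were called and also changed more than 2-fold, 285 (2.44%) higher and 172 (1.47%) lower in hybrid cells. The study's methods state a rule of average expression over 3 FPKM and of a change over 3-fold. Applied here to the larger of the group means, it took 211 genes (1.81%). Of these, 138 genes (1.18%) were higher and 73 (0.626%) were lower, and limma called 194. With 2 libraries per group, the p-values measure the spread between repeated libraries of a line, which may be technical, and for a single gene the smallest two-sided p of an exact permutation test is 0.333. The count of 3388 depended on every library and fell to 1364 without hybrid library 1, 1716 without hybrid library 2, 701 without EPSC library 1 and 1066 without EPSC library 2, whereas the count of genes changed more than 2-fold stayed between 398 and 536.

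**Figure D1:**
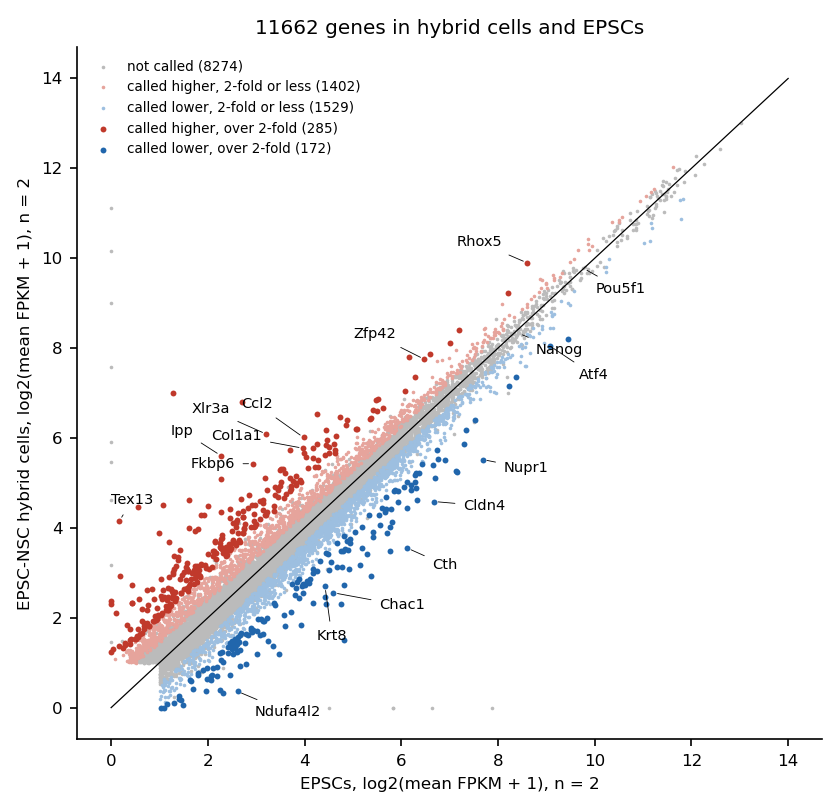
Mean expression of 11662 genes in EPSCs (x axis) and EPSC-NSC hybrid cells (y axis), both as log2(mean FPKM + 1) of 2 libraries, with limma calls in colour and a line at equal expression. Pou5f1 and Nanog lie on the line, Atf4, Cth, Chac1 and Cldn4 lie below it, and Xlr3a, Ccl2, Col1a1 and Zfp42 lie above it.

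The called genes were grouped by 85 lists of pathways, cell type markers and gene classes. Of the 457 genes changed more than 2-fold, 222 belonged to at least 1 list. Among the lowest medians were those of keratins, ATF4 targets and epithelial adhesion genes. The highest were those of fibroblast markers, the genes the study assayed by PCR between EPSCs and ESCs, X-linked germline genes and collagens. Lists of ribosomal proteins, oxidative phosphorylation, DNA replication, and naive pluripotency had medians between 0.01 and 0.08 and calls in both directions.

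**Figure D2:**
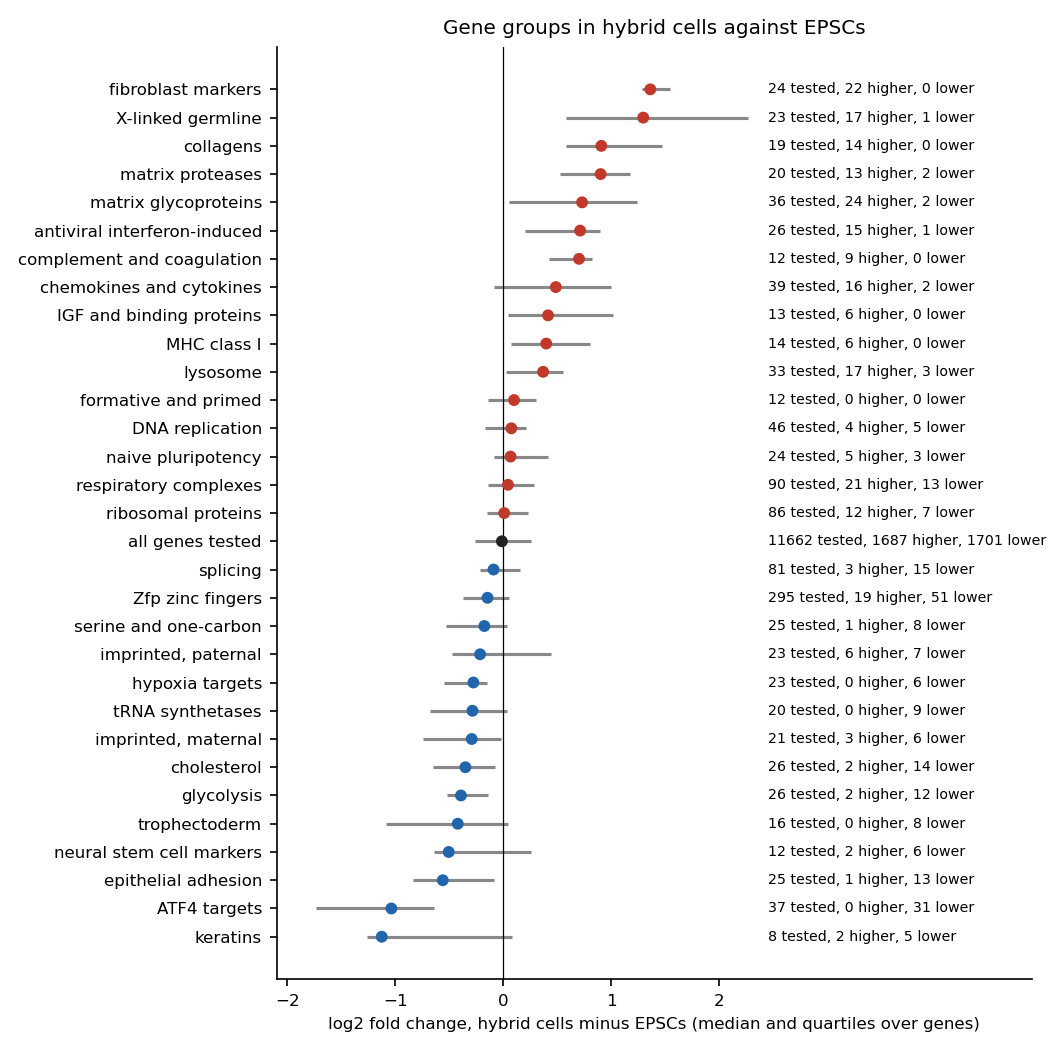
Median (point) and quartiles (bar) of the log2 fold change, hybrid cells minus EPSCs on the log2(FPKM + 1) scale, over the tested members of 30 gene lists and over all genes (black point), with the number of members tested and called by limma at the right. Fibroblast markers (median 1.36) stand at the top, and ATF4 targets (-1.04) and keratins (-1.12) stand at the bottom.

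Most genes of the ATF4 programme were lower in hybrid cells than in EPSCs. ATF4 is the transcription factor of the integrated stress response, in which amino acid shortage or unfolded protein slows translation in general but raises ATF4, which then drives amino acid import and synthesis. Of 39 listed ATF4 targets and partners, 37 were tested, 31 were lower in hybrid cells, none was higher, and 19 were lower by more than 2-fold, where 14.6% of all genes were called lower. Their median difference was -1.04, beside -0.01 for all genes. Of the 37, 4 passed the filter only through EPSCs, so their direction was fixed by it, and 27 of the 33 above it in both groups were lower. The promoters of 4 of these genes are shown because each carries the CARE motif that ATF4 binds together with C/EBP proteins. They are RefSeq promoters of GRCm38.p6, from 250 bases before to 50 after the gene start, written 5′ to 3′ on the strand of the gene, with the match to TGATGNAA on either strand in capitals.
Chac1 (chr2:119350992-119351291, plus strand): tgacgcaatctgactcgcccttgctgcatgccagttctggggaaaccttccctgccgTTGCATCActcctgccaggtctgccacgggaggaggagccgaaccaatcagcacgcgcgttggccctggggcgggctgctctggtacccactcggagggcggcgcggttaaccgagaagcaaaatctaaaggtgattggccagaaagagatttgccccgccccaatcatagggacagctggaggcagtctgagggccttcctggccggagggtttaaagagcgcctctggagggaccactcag
Nupr1 (chr7:126625421-126625720, minus strand): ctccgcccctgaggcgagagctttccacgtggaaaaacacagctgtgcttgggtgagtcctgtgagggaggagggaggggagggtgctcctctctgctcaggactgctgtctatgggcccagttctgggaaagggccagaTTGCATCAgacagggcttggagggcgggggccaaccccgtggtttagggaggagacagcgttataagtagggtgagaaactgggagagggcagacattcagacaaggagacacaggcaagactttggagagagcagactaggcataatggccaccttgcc
Herpud1 (chr8:94386179-94386478, plus strand): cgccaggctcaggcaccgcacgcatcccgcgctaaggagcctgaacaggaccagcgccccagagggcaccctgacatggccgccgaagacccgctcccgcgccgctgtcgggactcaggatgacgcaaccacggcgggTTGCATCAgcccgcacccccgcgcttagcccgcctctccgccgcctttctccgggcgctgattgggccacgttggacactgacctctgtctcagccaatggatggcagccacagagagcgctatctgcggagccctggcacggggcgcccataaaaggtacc
Asns (chr6:7693160-7693459, minus strand): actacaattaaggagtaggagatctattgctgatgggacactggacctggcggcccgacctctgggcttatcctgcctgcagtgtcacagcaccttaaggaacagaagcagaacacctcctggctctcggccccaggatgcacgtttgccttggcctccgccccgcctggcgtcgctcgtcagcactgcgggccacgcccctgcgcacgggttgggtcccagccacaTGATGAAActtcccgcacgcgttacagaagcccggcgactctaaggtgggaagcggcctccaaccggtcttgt
The motif began 193 bases before the start in Chac1, 112 in Herpud1, 110 in Nupr1 and 23 in Asns. It was found in 12 of the 33 list members with a promoter sequence (36.4%), in 5 of 13 tRNA synthetase genes (38.5%) and in none of 24 glycolysis genes. Among all 32851 promoters of the table, 3.97% held it, and among the tested genes 2.49% did. A match in this window describes the sequence and does not show that ATF4 was bound there.

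Atf4 mRNA itself was lower in hybrid cells, at 250.1 and 275.6 FPKM against 555.6 and 523.7 FPKM in EPSCs (log2 fold change -1.04, SE 0.08, limma adjusted p = 0.00319). Both hybrid libraries lay below both EPSC libraries, as they did for 35.6% of all genes tested, while for 34.8% they lay above. Most genes named here were chosen for a large change, so that a lack of overlap is a description of them. Among the called ATF4 targets, the largest fall was that of Cth, the enzyme that releases cysteine from cystathionine. Cth fell from 69.33 and 68.13 FPKM in EPSCs to 12.15 and 9.279 FPKM in hybrid cells (-2.58, SE 0.13, limma adjusted p = 0.00211). Chac1, which breaks down glutathione, was at 23.67 and 22.71 FPKM in EPSCs and at 4.374 and 5.38 FPKM in hybrid cells (-2.05). Nupr1, a stress-induced chromatin protein, fell from 202.0 and 208.4 to 33.01 and 56.67 FPKM (-2.22), and the groups did not overlap although the hybrid libraries differed from each other. Herpud1, an endoplasmic reticulum protein of protein degradation, fell from 40.59 and 36.03 to 9.305 and 9.996 FPKM (-1.88). Stc2, a secreted glycoprotein induced by stress, fell from 15.58 and 12.93 to 2.258 and 2.933 FPKM (-2.09).

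Some enzymes that make serine and feed folate metabolism were also lower. Phgdh, the first enzyme of serine synthesis, was at 167.6 and 154.8 FPKM in EPSCs and 69.52 and 73.24 FPKM in hybrid cells (log2 fold change -1.16). Psph, the last enzyme of that pathway, fell from 62.54 and 57.65 to 20.63 and 24.69 FPKM (-1.37). Mthfd2, the mitochondrial folate enzyme, fell from 141.2 and 135.4 to 30.52 and 44.87 FPKM (-1.87), and Shmt2, which moves the serine carbon onto folate in mitochondria, fell from 114.1 and 122.8 to 58.7 and 63.85 FPKM (-0.94). For each of these 4 genes, named for their large change, hybrid libraries lay below EPSC libraries, as for 35.6% of all genes. Over the whole list of serine, glycine and folate genes, 25 were tested, 8 were lower and 1, Mtrr, was higher, with a median of -0.17, so that 9 of 25 were called beside 29.1% of all genes, and 5 were called lower without hybrid library 1. Of the 8, 1 passed the filter only through EPSCs. Asns, which makes asparagine, was among the most abundant ATF4 targets and was at 277.8 and 273.5 FPKM in hybrid cells against 512.7 and 473.9 FPKM in EPSCs (-0.84, limma adjusted p = 0.00414).

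Aminoacyl-tRNA synthetases load amino acids onto tRNA. Of 20 cytosolic synthetase genes tested, 9 were lower in hybrid cells, 2 by more than 2-fold, and none was higher (median -0.28). By comparison, 14.6% of all genes were called lower. Nars fell from 307.6 and 286.1 to 133.8 and 149.3 FPKM (-1.06), and Gars fell from 343.4 and 317.4 to 157.5 and 166.3 FPKM (-1.02). Lars (-0.86), Sars (-0.84), Cars (-0.81) and Iars (-0.63) were called lower as well, and Iars lost its call in 1 alternative (adjusted p = 0.0536). Without EPSC library 1, 5 synthetases were called.

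Not every ATF4 target followed. Ddit3, which encodes the stress factor CHOP, was at 13.46 and 15.99 FPKM in hybrid cells and 17.15 and 13.76 FPKM in EPSCs (limma adjusted p = 0.756, 0.413 to 0.846 over the alternatives). Sesn2 was at 97.91 and 73.16 against 99.66 and 90.46 FPKM, and Gdf15 was at 2.915 and 2.958 against 3.272 and 2.982 FPKM. In these 3 genes, picked after their values were seen, the groups overlapped for Ddit3 and Sesn2 and nearly touched for Gdf15. Leaving out a library lowered the number of ATF4 targets called lower from 31 to between 22 (without EPSC library 1) and 29 (without hybrid library 2).

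The ATF4 targets were not uniformly at an ESC level in either group. Their summed FPKM was 1565 and 1621 in hybrid cells, 3379 and 3134 in EPSCs, 2380 and 2374 in ESCs, and 1148 and 1150 in NSCs. By this sum, hybrid cells lay between NSCs and ESCs, and EPSCs lay above ESCs. The median FPKM of the list was 13.46 and 14.92 in hybrid cells, close to 13.09 and 13.67 in NSCs. It was 47.29 and 47.47 in EPSCs and 42.85 and 40.97 in ESCs. ESCs and NSCs were grown in other media and were not part of the test.

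**Figure D3:**
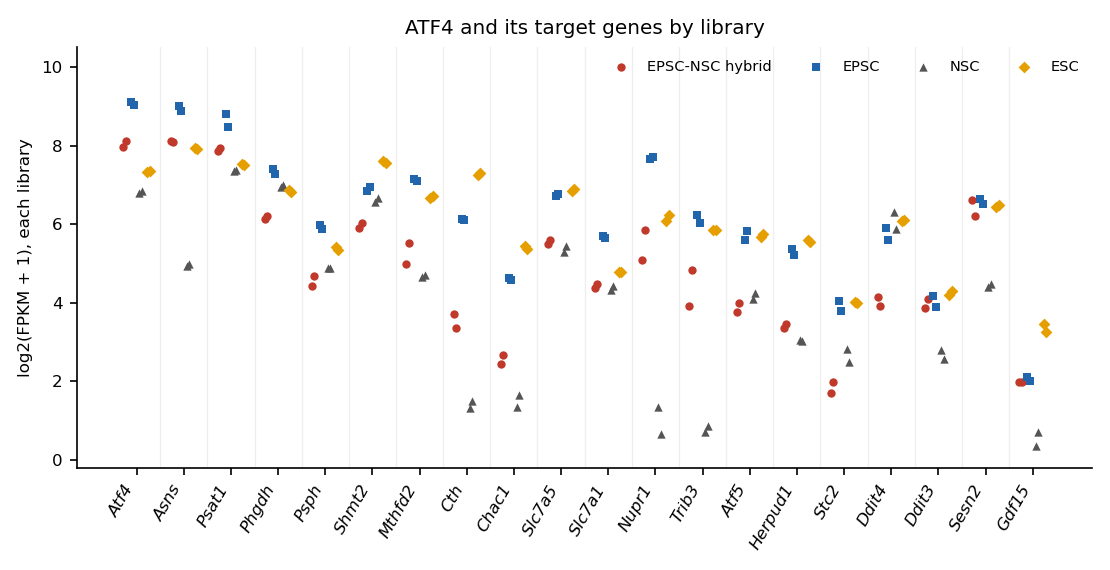
Expression of Atf4 and 19 of its target genes as log2(FPKM + 1) in each of the 8 libraries (2 points per group and gene). For Cth, Chac1, Nupr1 and Herpud1 both hybrid libraries lie below both EPSC libraries, and for Ddit3, Sesn2 and Gdf15 the hybrid and EPSC points lie close together.

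Some glycolysis genes were lower in hybrid cells. Of 26 tested, 12 were called lower and 2 higher, with a median of -0.39, beside 14.6% called lower and 14.5% called higher over all genes. Slc16a3, the lactate exporter MCT4, was at 9.804 and 8.538 FPKM in EPSCs and 2.137 and 1.003 FPKM in hybrid cells (-2.02, limma adjusted p = 0.00684). Pfkl, the liver form of phosphofructokinase, fell from 64.22 and 44.84 to 24.2 and 16.5 FPKM (-1.38), and Tpi1, triosephosphate isomerase, fell from 259.4 and 224.3 to 144.4 and 113.4 FPKM (-0.91). Ldha, lactate dehydrogenase A, was at 362.7 and 222.1 FPKM in hybrid cells and 817.2 and 581.6 FPKM in EPSCs (-1.28, limma adjusted p = 0.0216), and its call was lost without hybrid library 2 (adjusted p = 0.0526) and without EPSC library 1 (0.0738). Pfkl lost its call in 1 alternative (adjusted p = 0.0508). Hybrid libraries lay below EPSC libraries for all 4 genes, as for 35.6% of all genes tested. The most abundant glycolytic genes, Gapdh, Pkm and Eno1, did not pass the test (-0.41, -0.06 and -0.15). With a library left out, between 4 (without EPSC library 1) and 7 members were called lower, in place of 12, and 8 were when the median difference of each chromosome was subtracted, an alternative described with the chromosomes.

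The enolase genes need a separate account. Eno1b, a retrocopy of enolase 1 on chromosome 18 without introns, was at 146.4 and 106.2 FPKM in hybrid cells and 1.543 and 1.286 FPKM in EPSCs, the largest difference among the called genes (log2 fold change 5.70, SE 0.17, limma adjusted p = 0.000312). It was also at 141.3 FPKM in NSCs and 348.2 FPKM in ESCs as group means, so that EPSCs were the group that stood apart. Its parent gene Eno1 was at 1620 and 1104 FPKM in hybrid cells and 1694 and 1293 FPKM in EPSCs. Reads of near-identical copies can be assigned to either copy by the counting, and the level of Eno1b is uncertain for this reason. The same holds for Gm4737 and Gm8615, predicted genes that were higher in the same 3 groups than in EPSCs.

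The hypoxia-inducible factors switch on glycolysis and mitophagy at low oxygen. Of 23 of their targets tested, 6 were lower in hybrid cells, 4 of them by more than 2-fold, and none was higher (median -0.28), a share called of 26.1% beside 29.1% of all genes. Bnip3, a mitophagy receptor, fell from 22.56 and 19.02 to 4.813 and 3.145 FPKM (-2.15, limma adjusted p = 0.00369). Ndufa4l2, a hypoxia-induced gene of the respiratory chain that was not on the list, fell from 5.067 and 5.187 to 0.277 and 0.291 FPKM (-2.25), and it passed the filter only through EPSCs, which fixed its direction. Ddit4, an inhibitor of mTORC1, fell from 59.25 and 47.47 to 16.58 and 14.08 FPKM (-1.73), and Ero1l, an oxidase of disulfide formation, fell from 16.35 and 17.77 to 7.43 and 7.547 FPKM (-1.09). Stc2 and Ddit4 are also ATF4 targets and count on both lists. Txnip, which restrains glucose uptake, was lower too, from 170.6 and 113.4 to 38.57 and 34.79 FPKM (-1.90).

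Genes of sterol synthesis and uptake are targets of SREBP2. Of 26 tested, 14 were lower and 2, Nsdhl and Ebp, which both lie on the X chromosome, were higher (median -0.35). Among all genes, 14.6% were called lower and 14.5% higher. Insig1, the sterol-sensing retention protein, fell from 82.86 and 87.02 to 39.62 and 44.33 FPKM (limma adjusted p = 0.00394). Cyp51 fell from 44.87 and 49.26 to 21.32 and 25.91 FPKM (-0.97) and Hmgcs1 from 115.5 and 119.9 to 66.54 and 69.12 FPKM (-0.79), both enzymes of the synthesis route. Hybrid libraries lay below EPSC libraries for these 3 genes, as for 35.6% of all genes tested. The count of lower members was between 5 (without EPSC library 1) and 11 (without hybrid library 2) when a library was left out, and with chromosome medians subtracted 9 were lower and none was higher. A sterol response motif, TCACNCCAC on either strand, was present in 1 of 18 promoters of the list (5.56%), that of Hmgcs1. It was present in 1.24% of all promoters, in 1.42% of those of tested genes and in 2 of 24 of glycolysis genes (8.33%). The motif therefore did not set the sterol list apart.

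Some epithelial adhesion genes and simple-epithelium keratins were lower in hybrid cells. Of 25 adhesion and polarity genes tested, 13 were lower, 5 by more than 2-fold, and 1 was higher (median -0.56). For all genes, the share called lower was 14.6%. Cldn4, a tight junction claudin, fell from 108.4 and 94.52 to 20.4 and 25.61 FPKM (-2.098, limma adjusted p = 0.00264), and Epcam fell from 166.4 and 146.9 to 55.28 and 59.93 FPKM (-1.43). Cdh1, which encodes E-cadherin, fell less, from 144.6 and 136.0 to 88.45 and 101.7 FPKM (-0.56). Its call was lost without hybrid library 1 (adjusted p = 0.051) and without EPSC library 1 (0.0733). In all 3 genes both hybrid libraries lay below both EPSC libraries, as in 35.6% of all genes. Only 2 (without EPSC library 1) to 10 (without hybrid library 2) adhesion genes were called lower when a library was left out.

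Of 52 keratin genes, 8 were expressed above the filter, 5 of them lower and 2 higher, where 14.6% of all genes were called lower and 14.5% higher. Krt8 was at 21.95 and 18.93 FPKM in EPSCs and 5.55 and 5.438 FPKM in hybrid cells (-1.72), and its partner Krt18 was at 12.78 and 13.79 against 5.249 and 6.7 FPKM (-1.04). Krt19 fell from 4.278 and 3.356 to 1.217 and 0.941 FPKM (-1.21). Krt23 went the other way, from 1.259 and 1.175 to 5.479 and 2.967 FPKM (1.19), and lost its call in some of the reduced data sets. The other keratin called higher was Krt42, the most abundant of the list. Its call was lost in each of the reduced data sets. The trophectoderm list had 8 of 16 tested members lower and none higher (median -0.42), beside 14.6% of all genes called lower. Of the 16, 2 passed the filter only through EPSCs, and 7 of the other 14 were lower. However, 5 of the 8 are Cldn4 and the keratins Krt7, Krt8, Krt18 and Krt19, and the number lower was 5 without hybrid library 2 or either EPSC library. Tead4, a transcription factor of trophectoderm, was at 9.523 and 7.95 FPKM in hybrid cells and 13.91 and 12.86 FPKM in EPSCs (-0.57, limma adjusted p = 0.0236, 0.00262 to 0.116 over the alternatives).

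On the hybrid side, most tested members of 4 lists of matrix and mesenchymal genes were higher, where 14.5% of all genes were called higher. Of 44 collagen genes, 19 were tested, 14 were higher, 9 by more than 2-fold, and none was lower (median 0.91). Matrix glycoproteins and collagen-processing enzymes had 24 of 36 members higher and 2 lower (median 0.73), and matrix proteases with their inhibitors had 13 of 20 higher and 2 lower (median 0.90). Regulators and markers of the mesenchymal state had 12 of 19 higher and none lower (median 0.63). On each of these 4 lists, 3 members passed the filter only through the hybrid group, which fixed their direction. Of the members above it in both groups, 13 of 16 collagens and 21 of 32 matrix genes were higher. So were 10 of 17 proteases and 10 of 16 mesenchymal genes, while 2 matrix genes and 2 proteases were lower. Without EPSC library 1, the calls fell to 8 collagens, 13 matrix genes, 8 proteases and 7 mesenchymal genes.

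Col1a1, the main collagen of connective tissue, was at 61.02 and 46.25 FPKM in hybrid cells and 13.65 and 15.69 FPKM in EPSCs (log2 fold change 1.79, SE 0.15, limma adjusted p = 0.00332). Dcn, the collagen-binding proteoglycan decorin, was at 41.68 and 33.9 against 10.81 and 9.704 FPKM (1.78). Postn, the matrix protein periostin, was at 41.14 and 31.14 against 11.52 and 10.52 FPKM (1.62). In each of these genes both hybrid libraries were well above both EPSC libraries, and hybrid library 1 was the higher of the pair. Lum (1.75), Thbs2 (1.51) and Tnc (1.37), all secreted matrix proteins, were higher by similar amounts. Among proteases, Plau, the urokinase plasminogen activator, rose from 2.706 and 4.208 to 12.53 and 11.01 FPKM (1.54), whereas its receptor Plaur fell from 47.78 and 44.24 to 15.98 and 15.55 FPKM (-1.49). Timp2 (1.45) and Mmp2 (1.41) were also higher.

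Most of these genes are made by fibroblasts, and the hybrid, EPSC and ESC lines had grown on fibroblast feeders. The NSCs had grown on gelatin. Of 25 fibroblast markers, 24 were tested, 22 were higher in hybrid cells, 21 by more than 2-fold, and none was lower (median 1.36). By comparison, 14.5% of all genes were called higher. Of the 22, 1 passed the filter only through the hybrid group. Their summed FPKM was 869.2 and 675.5 in the hybrid libraries, 360.6 and 361.0 in the EPSC libraries, 187.9 and 194.4 in ESCs, and 116.6 and 109.3 in NSCs. All 25 markers were higher in both hybrid libraries than in both EPSC libraries, as were 34.8% of all genes tested, with a median ratio of means of 3.20. No defining fibroblast marker was at 0 in either group. Lum, which was at 0 and 0.0178 FPKM in ESCs and listed at 0 in both NSC libraries, was at 18.37 and 16.72 FPKM in hybrid cells and 5.033 and 4.022 FPKM in EPSCs. In bulk RNA, more fibroblasts in a sample and more of this RNA per cell cannot be told apart, and the part of the feeder cells in the matrix result was not tested.

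Members of the matrix lists did not all move alike. Fn1, the fibronectin gene, which pluripotent cells also express (141.1 FPKM on average in ESCs), was at 170.6 and 163.6 FPKM in hybrid cells and 157.4 and 162.3 FPKM in EPSCs (0.06, limma adjusted p = 0.528, 0.372 to 0.827 over the alternatives). Twist1 was at 3.544 and 3.425 against 1.241 and 2.75 FPKM and did not pass the test (0.63, limma adjusted p = 0.107, 0.0299 to 0.357 over the alternatives), whereas its relative Twist2 was higher, at 5.634 and 4.214 against 1.521 and 1.3 FPKM (1.29). The study assayed 7 genes by PCR between EPSCs and ESCs, and they overlap with this group. It named all but Esrp1 among the EPSC-specific genes that it then assayed in hybrid cells. Postn, Bgn, Tnc, Vcam1, Csf1 and Steap4 were higher and Esrp1 was lower in hybrid cells, each by more than 2-fold. Steap4 passed the filter only through the hybrid group, which fixed its direction. The study took these genes from earlier work that compared EPSCs with ESCs, so they were not chosen for the contrast of hybrid cells with EPSCs. Postn, Bgn and Tnc are also on the fibroblast or matrix lists. Csf1 lost its call without EPSC library 1 (adjusted p = 0.071) and without EPSC library 2 (0.0783), and Esrp1 without hybrid library 2 (0.0644) and without EPSC library 1 (0.0925).

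Chemokines of a single gene cluster were higher in hybrid cells. Of 145 listed chemokine, interleukin and receptor genes, 39 were expressed, 16 were higher, 9 by more than 2-fold, and 2 were lower (median 0.49). Of the 39, 7 passed the filter only through the hybrid group, which fixed their direction, and 1 only through EPSCs. Of the 31 above it in both groups, 11 were higher and 2 lower (median 0.40). Among all genes, 14.5% were called higher and 14.6% lower. The genes Ccl2, Ccl7, Ccl11, Ccl12 and Ccl8, which attract monocytes and eosinophils, lie side by side at chr11:82035577-82116799 (GRCm38) and were the leading ones. Ccl2 was at 74.15 and 52.86 FPKM in hybrid cells and 15.08 and 14.45 FPKM in EPSCs (2.01, limma adjusted p = 0.00319). Ccl8 was at 17.69 and 19.07 against 3.234 and 2.322 FPKM (2.37), and Ccl7 was at 38.34 and 29.01 against 8.602 and 7.533 FPKM (1.92). Ccl11 (1.85) and Ccl12 (1.69) were higher by a similar size. Il1rl1, the receptor for interleukin 33, was also higher (1.49), with calls lost without either EPSC library (adjusted p = 0.0521 and 0.0546). Without EPSC library 1, 8 genes of the list were called higher. Fibroblasts express these chemokines. The fibroblast marker sum was 2.14 times as high in hybrid cells, and the median ratio of the markers was 3.20. The part of this RNA in the chemokine result was not tested.

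**Figure D4:**
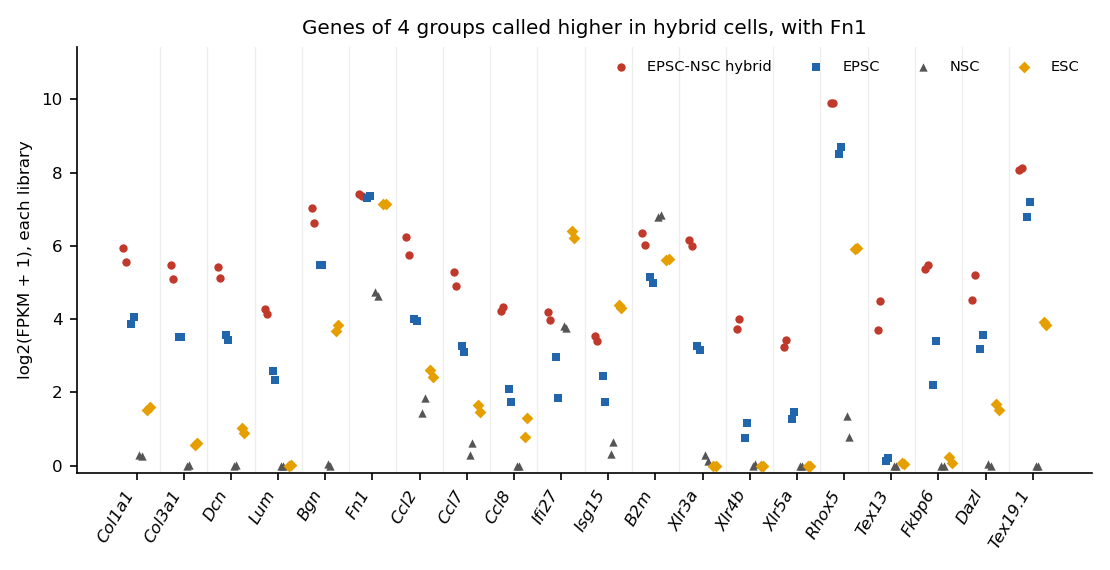
Expression as log2(FPKM + 1) in each of the 8 libraries for matrix genes, chemokines, interferon and antigen presentation genes, and germline genes called higher in hybrid cells, with Fn1 for comparison. Both hybrid points lie above both EPSC points for every gene shown, by a small margin for Fn1 (163.6 and 162.3 FPKM in the nearest libraries), and the Xlr genes are near 0 in NSCs and ESCs.

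Some antiviral genes induced by interferon were higher. Of 26 tested, 15 were higher, 3 by more than 2-fold, and 1 was lower (median 0.71), where 14.5% of all genes were called higher. Of the 26, 9 passed the filter only through the hybrid group, and of the 16 above it in both groups 7 were higher and 1 was lower (median 0.42). Fibroblasts can express these genes too. Their marker RNA was 2.14 times as high in hybrid cells by its sum, with a median marker ratio of 3.20. The part of this RNA was not tested. Isg15, a ubiquitin-like modifier, was at 10.7 and 9.63 FPKM in hybrid cells and 4.437 and 2.311 FPKM in EPSCs (1.39, limma adjusted p = 0.015), and Oas2, a sensor of double-stranded RNA, was at 2.211 and 2.554 against 0.813 and 0.403 FPKM (1.08), with a direction fixed by the filter. Ifi27 was at 17.44 and 14.91 against 6.877 and 2.621 FPKM (1.68). In these genes both hybrid libraries lay above both EPSC libraries, as in 34.8% of all genes tested. However, the EPSC libraries differed between themselves. Isg15 lost its call without hybrid library 1 (adjusted p = 0.0549), and Ifi27 without either hybrid library (0.0781 and 0.0596). Bst2, the antiviral protein tetherin, was lower, at 35.9 and 36.41 against 95.16 and 67.46 FPKM (-1.13). The number called higher without a library was 6 (without EPSC library 2) to 9. The promoter of Isg15 is shown because the letters of the interferon-stimulated response element occur in it 3 times within the run in capitals, overlapping each other and beginning 78, 72 and 66 bases before the start.
Isg15 (chr4:156200769-156201068, minus strand): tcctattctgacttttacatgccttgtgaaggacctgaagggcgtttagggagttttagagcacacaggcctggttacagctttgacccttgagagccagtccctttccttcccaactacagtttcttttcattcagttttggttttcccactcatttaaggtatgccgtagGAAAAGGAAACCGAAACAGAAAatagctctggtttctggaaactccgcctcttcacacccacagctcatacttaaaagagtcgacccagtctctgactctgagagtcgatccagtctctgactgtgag
Promoters of 11 of 20 listed genes with a sequence (55.0%) held this motif on either strand, beside 3.44% of all promoters.

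MHC class I molecules present peptides to T cells. Of 14 MHC class I and antigen processing genes, 6 were higher and none was lower (median 0.40), where 14.5% of all genes were called higher. Of the 14, 4 passed the filter only through the hybrid group, which fixed their direction. Of the other 10, 4 were higher and none was lower (median 0.33). B2m, the light chain of MHC class I, was at 80.08 and 64.03 FPKM in hybrid cells and 34.74 and 30.8 FPKM in EPSCs (1.11, limma adjusted p = 0.00763), and H2-Q4, a class I heavy chain of a family with near-identical copies, was at 8.822 and 6.891 against 2.54 and 2.082 FPKM (1.41). Both were also above zero in NSCs, with means of 111.4 and 7.089 FPKM. Of 12 complement and coagulation genes, 9 were higher and none was lower (median 0.70), led by Pros1, the anticoagulant protein S, at 13.75 and 13.73 against 5.725 and 5.609 FPKM (1.14). Without a library, 2 to 5 MHC genes and 3 to 7 complement genes were called. Fibroblasts express many genes of both lists. The fibroblast marker RNA was 2.14 times as high in hybrid cells by its sum, with a median marker ratio of 3.20. Its part was not tested here.

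Lysosomal and growth factor genes had more higher than lower calls. Of 33 lysosomal genes, 17 were higher and 3 were lower (median 0.37), beside 14.5% and 14.6% of all genes. Ctsk, cathepsin K, was at 18.39 and 19.59 FPKM in hybrid cells and 4.643 and 5.688 FPKM in EPSCs (1.70), and Grn, progranulin, was at 99.69 and 131.8 against 39.51 and 49.87 FPKM (1.35). Ctsc (-0.83) was among the lower ones. Of 13 genes of the insulin-like growth factor system, 6 were higher, 1 of which passed the filter only through the hybrid group, and none was lower (median 0.42). Among the higher genes was Igf2bp2, an RNA-binding protein, at 57.82 and 54.99 against 20.47 and 20.93 FPKM (1.40). For Ctsk, Grn and Igf2bp2 both hybrid libraries lay above both EPSC libraries, as for 34.8% of all genes. The lysosomal count dropped to 5 without EPSC library 1. Fibroblasts also express genes of these classes. The sum of their marker RNA was 2.14 times as high in hybrid cells, with a median marker ratio of 3.20. The part of this RNA was not tested.

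Germline genes of the X chromosome were another group on the hybrid side. The part of fibroblast RNA in their result was not tested. The list holds 78 testis-expressed and reproductive homeobox genes, of which 23 were tested. Of these, 17 were higher in hybrid cells, 13 by more than 2-fold, and 1 was lower (median 1.30). For all genes, the share called higher was 14.5%. Since 8 of the 23, among them Xlr3c, Xlr4c and Tex13, passed the filter only through the hybrid group, their direction was fixed by the filter. Of the 15 above it in both groups, 10 were higher and 1 was lower (median 1.30). The number called higher fell from 17 to 12 without EPSC library 1 and to 13 without any other library. The Xlr genes, lymphocyte-regulated relatives of the synaptonemal complex protein SYCP3, lie from Xlr4a to Xlr3c at chrX:73074343-73265576 (GRCm38). Xlr3a was at 71.05 and 62.8 FPKM in hybrid cells and 8.587 and 7.91 FPKM in EPSCs (2.88, SE 0.10, limma adjusted p = 0.000518). Xlr4b was at 12.41 and 15.04 against 0.696 and 1.259 FPKM (2.91), and Xlr3c was at 6.267 and 6.919 against 0.0329 and 0.253 FPKM (2.74). Xlr4c was at 2.84 and 5.536 FPKM in hybrid cells and was listed at 0 in both EPSC libraries. In NSCs and ESCs the Xlr genes were near 0, Xlr3a at a mean of 0.157 FPKM in NSCs and 0 in ESCs. Because the Xlr genes are near-identical copies, their reads can be divided between members, and the level of a single member is uncertain.

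Rhox5, the first described reproductive homeobox gene and the most abundant member of the list, was at 952.2 and 952.7 FPKM in hybrid cells and 360.7 and 414.9 FPKM in EPSCs (1.30, limma adjusted p = 0.0029). Its mean was 60.36 FPKM in ESCs and 1.137 FPKM in NSCs. Tex13, a testis-expressed gene, was at 11.98 and 21.72 FPKM in hybrid cells and 0.0947 and 0.159 FPKM in EPSCs. The single lower member, Usp26, named here after its value was seen, fell from 4.497 and 6.053 to 1.425 and 2.055 FPKM (-1.19). The groups did not overlap for Rhox5, Tex13 and Usp26, beside 34.8% of all genes with hybrid libraries above and 35.6% with hybrid libraries below.

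Germline genes outside the X chromosome that are held silent by promoter methylation in somatic cells had calls in both directions. Of 31 listed, 21 were tested, 5 were higher, 4 by more than 2-fold, and 3 were lower (median 0.35). The share called was 38.1%, beside 29.1% of all genes. Of the 21, 1 passed the filter only through hybrid cells and 2 only through EPSCs. Of the other 18, 4 were higher and 3 lower. With chromosome medians subtracted, 8 of the 21 were higher and 2 lower (median 0.51). Fkbp6, a co-chaperone of the piRNA pathway, was at 40.3 and 43.79 FPKM in hybrid cells and 3.652 and 9.564 FPKM in EPSCs (2.62, limma adjusted p = 0.00966). Dazl, an RNA-binding protein of germ cells, was at 22.04 and 35.84 against 8.155 and 10.82 FPKM (1.49), and lost its call without EPSC library 1 (adjusted p = 0.0529). Tex19.1 was at 269.8 and 278.6 against 108.9 and 146.8 FPKM (1.11), and Rpl10l, a testis copy of a ribosomal protein gene, was at 69.71 and 74.85 against 27.33 and 37.14 FPKM (1.16). Sycp3, in contrast, was lower, at 5.263 and 8.071 against 11.34 and 16.52 FPKM (-0.96), and its call was lost without hybrid library 1 (adjusted p = 0.101) and without EPSC library 2 (0.113). Without EPSC library 1, 3 genes of the list were called higher. All of these genes were at or near 0 in NSCs.

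Among 24 genes of naive and core pluripotency, all of which were expressed above the filter, 5 were higher and 3 were lower (33.3% called, beside 29.1% of all genes), and their median was 0.07. Zfp42, which encodes the naive marker REX1, was at 228.0 and 201.5 FPKM in hybrid cells and 87.41 and 88.41 FPKM in EPSCs (1.28, limma adjusted p = 0.0029), and its mean in ESCs was 340.1 FPKM. Prdm14 (0.66), Dppa2 (0.59), Tbx3 (0.52) and Dppa4 (0.40) were the other higher genes. Fgf4, the growth factor that primes pluripotent cells for differentiation, was at 59.62 and 44.55 FPKM in hybrid cells and 114.0 and 97.07 FPKM in EPSCs (-1.01), and Klf4 was at 76.34 and 99.73 against 131.9 and 134.6 FPKM (-0.60). Tdgf1 was lower by 0.49. All of these calls except that of Zfp42 were lost in at least 1 reduced data set, that of Fgf4 without EPSC library 1 (adjusted p = 0.0518). Pou5f1 (0.00), Nanog (-0.10), Sox2 (0.05) and Esrrb (-0.01) did not pass the test, with limma adjusted p of 0.994, 0.355, 0.627 and 0.934, and no alternative called them.

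Markers of the fused NSC partner were not retained as a group. Of 28 NSC markers, 12 passed the filter, 6 of them lower and 2 higher in hybrid cells than in EPSCs (median -0.50). Among all genes, 14.6% were called lower and 14.5% higher. Nes, the filament protein nestin, was at 2.413 and 2.384 FPKM in hybrid cells, 4.629 and 4.298 FPKM in EPSCs, and 114.0 and 119.6 FPKM in NSCs. Olig2, a factor of neural and oligodendrocyte progenitors, was at 4.061 and 3.56 FPKM in hybrid cells, 5.892 and 6.093 FPKM in EPSCs, and 320.2 and 333.5 FPKM in NSCs. Both genes thus lay far below the NSC level in the hybrid cells and in their EPSC parent. Gfap was at 0.0174 and 0.0175 FPKM in hybrid cells. The higher genes were Sox21 (1.03) and Egfr (0.82), and Egfr passed the filter only through the hybrid group, which fixed its direction. The summed level of the list, of which Fabp7 made up much in NSCs, was 1.63% of the NSC level in EPSCs and 1.19% in hybrid cells. Without EPSC library 1, no marker of this list was called.

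Imprinted genes, which are expressed from the copy of a single parent, changed in both directions. Of 23 paternally expressed genes, 6 were higher and 7 lower, and of 21 maternally expressed genes, 3 were higher and 6 lower. The share called was 56.5% for paternally and 42.9% for maternally expressed genes, beside 29.1% of all genes. Of the 23, 4 passed the filter only through hybrid cells, and of the other 19, 5 were higher and 7 lower (median -0.37). Of the 21 maternally expressed genes, 1 passed it only through hybrid cells and 1 only through EPSCs, and of the other 19, 2 were higher and 6 lower. Peg10, a retrotransposon-derived placental gene, was at 13.44 and 7.05 FPKM in hybrid cells and 61.53 and 45.83 FPKM in EPSCs (-2.33, limma adjusted p = 0.00834), and Peg3 was at 13.07 and 10.31 against 24.8 and 24.44 FPKM (-1.02). Of the maternally expressed genes, Grb10, an adaptor that dampens insulin signalling, was at 15.43 and 15.01 against 35.75 and 35.44 FPKM (-1.17), and Phlda2, which restrains placental growth, was at 27.21 and 32.84 against 62.83 and 81.6 FPKM (-1.23). Igf2, a paternally expressed growth factor, was higher, at 12.39 and 8.88 against 3.833 and 3.996 FPKM (1.23), and fibroblasts express it too. These 5 genes, named for their large change, did not overlap between the groups. Of all genes tested, 34.8% had both hybrid libraries above both EPSC libraries and 35.6% had them below. H19, the maternal neighbour of Igf2, was higher as well (0.92). Dcn, which is also a fibroblast marker, was among the 3 higher maternally expressed genes. Without EPSC library 2, a single gene of each class was called higher.

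Genes of the Y chromosome were expressed in both lines. Of 6 tested, 3 were called higher in hybrid cells, all by more than 2-fold, and 1 was lower (median 0.77). Among all genes, 14.5% were called higher and 14.6% lower. Eif2s3y, a translation factor subunit, was at 60.58 and 62.22 FPKM in hybrid cells and 18.64 and 23.23 FPKM in EPSCs (1.52, limma adjusted p = 0.00319). Uba1y, a ubiquitin-activating enzyme, was at 14.82 and 14.44 against 1.898 and 3.011 FPKM (2.197). Kdm5d, a histone demethylase, was at 3.564 and 3.963 against 6.873 and 7.601 FPKM (-0.79), and lost its call without EPSC library 2 (adjusted p = 0.0552).

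Housekeeping classes had calls in both directions, and 29.1% of all genes were called. The share called was 22.1% for ribosomal proteins, 37.8% for oxidative phosphorylation and 19.6% for replication. It was 40.5% for mitosis, 22.2% for splicing and 23.7% for genes named Zfp. Of 86 ribosomal protein genes, 12 were higher and 7 lower (median 0.01). Of 90 genes of oxidative phosphorylation, 21 were higher and 13 lower (median 0.04), and of 46 DNA replication genes, 4 were higher and 5 lower (median 0.08). Mitosis genes had 5 of 42 higher and 12 lower (median -0.07), and splicing factors had 3 of 81 higher and 15 lower (median -0.09). Genes named Zfp, most of which encode zinc finger repressors, had 19 of 295 higher and 51 lower (median -0.14), but only 3 changed more than 2-fold. When a library was left out, 1 to 4 ribosomal protein genes were called higher in place of 12, and 0 to 2 replication genes in place of 4. Likewise, 3 to 6 genes of oxidative phosphorylation were called higher in place of 21, and 1 to 6 mitosis genes were called lower in place of 12. Without EPSC library 1, 2 zinc finger genes and 0 splicing factors were called lower. Of the 295 Zfp genes, 220 lie on chromosomes with a negative median, and with chromosome medians subtracted 13 were higher and 15 lower (median -0.06). With the same subtraction, 1 mitosis gene was higher and 5 were lower, 2 splicing factors were higher and 6 were lower, and 6 genes of oxidative phosphorylation were higher and 5 were lower. Ribosomal protein genes then had 2 higher and 4 lower, and replication genes had 0 higher and 4 lower. Ipp, which encodes a kelch-repeat protein and lies at chr4:116507512-116543410 (GRCm38), belonged to no class described here and was at 48.68 and 46.95 FPKM in hybrid cells and 3.689 and 3.932 FPKM in EPSCs (3.34, SE 0.09, limma adjusted p = 0.000312).

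The position of a gene was related to its small differences. The median log2 fold change was positive for chromosomes 1, 2, 4, 9, 11, 12, 16, 19 and X, from 0.07 on chromosome 9 to 0.23 on chromosome 16. It was negative for the other 11 autosomes, from -0.13 on chromosome 17 to -0.21 on chromosome 13. The Y chromosome, with 6 genes tested, was left out of this description. Each median kept its sign in all 4 pairings of a hybrid with an EPSC library, and for all 20 chromosomes the genes before and after the middle gene of the chromosome had medians of the same sign. Between repeated libraries, chromosome medians lay between -0.00 and 0.05 for hybrid cells and between 0.00 and 0.05 for EPSCs. The 5550 genes on the positive chromosomes had a median of 0.17 and the 6074 genes on the negative ones a median of -0.17, a difference of 0.34, or 1.27-fold. Since the chromosomes were divided by these same values, this is a description and carries no test. No copy number was measured in these data, and whether the number of chromosome copies moved with it was not tested.

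The calls followed the same division. On the 9 positive chromosomes 1233 genes (22.2%) were called higher and 254 (4.58%) lower, and on the 11 negative ones 442 (7.28%) were called higher and 1440 (23.7%) lower. On the positive chromosomes 70.2% of genes had a positive difference, and on the negative ones 70.6% had a negative difference. When the chromosome medians were subtracted, an alternative added after the data were seen, 1997 genes were called, 1091 higher and 906 lower, and 1667 of them were among the 3388. Among genes changed more than 2-fold, 166 higher and 39 lower ones lay on the positive chromosomes, and 114 higher and 132 lower ones on the negative chromosomes. Of the 457, 442 were still called after the subtraction, which is small beside a 2-fold change. The median of the ATF4 targets was again -1.04, and 29 of their 31 calls were kept. The median moved from -0.56 to -0.43 for epithelial adhesion genes, of which 10 were called lower, and from 0.91 to 0.73 for collagens. In all, 38 of the 85 list medians moved by more than the spread over library pairs (1 SD). Hybrid minus NSC medians were between 0.23 and 0.50 on the positive chromosomes and between 0.00 and 0.23 on the negative ones, while EPSC minus NSC medians were between 0.13 and 0.34 and between 0.17 and 0.35. These differences share the hybrid, EPSC and NSC libraries and are given side by side only.

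**Figure D5:**
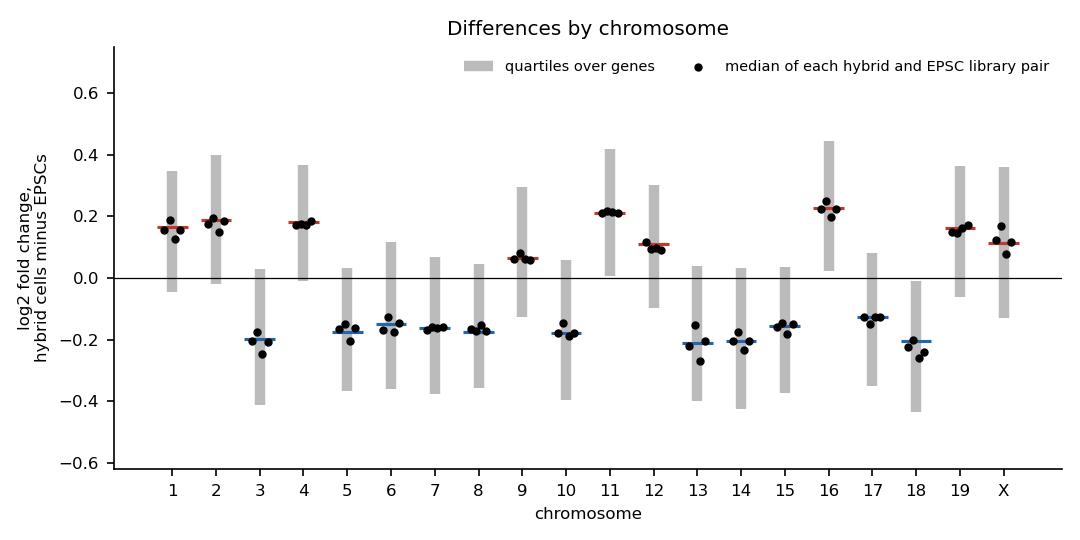
Log2 fold change of hybrid cells minus EPSCs on the log2(FPKM + 1) scale by chromosome: coloured line, median over genes; grey bar, quartiles; black points, median of each of the 4 pairs of a hybrid and an EPSC library. The 9 chromosomes with a median above 0 and the 11 below it keep their side in all 4 pairs.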

How the data were processed

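RNA of 8 libraries in 4 groups was measured, and the 4 hybrid and EPSC libraries were compared. The authors trimmed and aligned the reads to the mouse genome (mm10) with STAR 2.7.9a and deposited FPKM for each gene and library, made with Cuffnorm of Cufflinks 2.2.1. The annotation, strand setting and scaling of Cuffnorm are not given in the sources used here. No deposited column belonged to another sample (0 columns). The depth was estimated from the steps between low FPKM values at an assumed fragment length of 200 nucleotides. A floor of 3 fragments on a transcript of 2000 nucleotides is then 0.07 to 0.0764 FPKM in the 4 libraries, which covers counting error only.

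Genes with a mean of at least 1 FPKM in either group were tested with limma 3.58.1 (R 4.3.3; lmFit and eBayes with trend, two-sided, Benjamini-Hochberg) on log2(FPKM + 1), with 2 residual and 3.73 prior degrees of freedom. Fold changes are on this scale and understate those of low genes. Standard errors are those of limma. In simulated data with 200 changed genes among 11662, the fit recovered 75% of changes of 1 and 100% of changes of 2 on the log2 scale. The fit made 10 false calls, and 198 of the changed genes had the right direction. The simulated errors were independent, had the spread that the fit assumes and included no chromosome shift. Changed genes were drawn only from those above a set expression level. These figures describe the fit under such settings and are not the error rate of the calls reported here. Descriptions were made with Python 3.11.15 (pandas 2.3.3, numpy 2.4.6, matplotlib 3.10.9). Chromosomes, gene types and promoters came from RefSeq annotation of GRCm38.p6, the assembly of mm10, which matched 11630 of 11662 symbols.

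The comparison, the lists and their genes were chosen with earlier results of these data known. Symbols that matched no gene, and 4 genes that a name pattern had wrongly placed on the X-linked list, were removed after the data were opened. Called genes over 2-fold with a mean of at least 3 FPKM and no overlap were ranked by their difference. The 25 at the top in each direction were named. In each list, up to 6 called members with the largest difference and the 3 most abundant were named too. Cell type markers, pluripotency genes, the genes the study assayed by PCR between EPSCs and ESCs and sex-chromosome genes were added. Mtrr, Nsdhl, Ebp, Tead4, Ddit3, Sesn2, Gdf15 and Usp26 were picked after their values were seen. Some genes covered by the rule are not reported here. Alternatives were other pseudocounts, filters, scalings, fits and left-out libraries, a replicate block, and subtracted chromosome medians.

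Libraries of hybrid cells and EPSCs share the replicate numbers 1 and 2 by label only. The deviations of same-numbered libraries had a correlation of 0.284 across genes, but nothing in the labels says that a number marks a shared culture or day, and with 2 pairs this does not establish a pairing.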

Additional observations from a re-analysis of the deposited data

How the results depend on the processing

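None of the 3388 calls reversed its direction in any setting that gave it a value. The 3388 calls became 5881 with all 8 libraries in the fit, 1873 without the expression filter, and 701 to 1716 when a library was left out (701 without EPSC library 1, 1066 without EPSC library 2, 1364 without hybrid library 1, 1716 without hybrid library 2), and 554 were called in all 4 reduced sets. With 1 library in a group, that library was assumed to vary like the other group. The replicate block gave 6018 calls, which included all 3388, and 6060 with 8 libraries. With chromosome medians subtracted, added after the data were seen, 1997 were called. The 457 genes changed more than 2-fold became 850 with a pseudocount of 0.1 (561 higher, 289 lower), and 359 of them were called in all 4 reduced sets. The study's rule gave 759 genes in place of 211 with both thresholds at 2. Of the 488 called genes covered by the naming rule, 203 kept their call in every alternative except those added, and 329 in all of these but the ones leaving out a library. List medians changed sign for 22 lists in settings other than the subtraction of chromosome medians, for 8 with that subtraction, and for 25 in either, for which no direction is given; the signs of the 20 chromosome medians held in the 13 settings checked. Depths of 21.8 to 23.8 (in units of 1000000 fragments) put 3 fragments on a transcript of 2000 nucleotides at 0.07 to 0.0764 FPKM, and 1 line per group limits the comparison to these lines.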

Other observations

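Of 12 genes of peptide hormones and their processing enzymes, 2 were higher and 4 lower (median -0.49), where 29.1% of all genes were called. Of the 12, 3, among them Adm2, passed the filter only through EPSCs, which fixed their direction, and of the other 9, 2 were higher and 3 lower (median -0.38). Calca, which encodes calcitonin and its related peptide, was at 4.914 and 2.956 FPKM in hybrid cells and 27.66 and 24.21 FPKM in EPSCs, and Adm2, an adrenomedullin-like peptide, was at 0.138 and 0.483 against 3.598 and 3.874 FPKM. Srgn, the proteoglycan of secretory granules, was at 0.345 and 0.181 against 3.562 and 4.358 FPKM (-1.97), and it too passed the filter only through EPSCs. Arc, an immediate-early gene of neurons that EPSCs express, was at 3.842 and 5.107 against 16.57 and 24.49 FPKM (-1.96). Id2, an inhibitor of basic helix-loop-helix factors, was at 4.788 and 10.15 against 24.87 and 33.4 FPKM (-1.89), and lost its call in 1 of the alternatives (adjusted p up to 0.0527).

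Of 30 genes of the p53 response tested, 7 were higher and 2 lower (median 0.31), so that 9 of 30 were called beside 29.1% of all genes, and 1 of the 7 passed the filter only through the hybrid group. The higher calls fell to 2 without hybrid library 1 or EPSC library 2, to 3 without EPSC library 1 and to 5 without hybrid library 2, and the median was -0.03 in 1 of the 4 library pairs. With chromosome medians subtracted, 4 were higher. Aen, an exonuclease of apoptosis, was at 51.9 and 44.52 FPKM in hybrid cells and 19.51 and 21.68 FPKM in EPSCs (1.19), whereas Gadd45a, a growth arrest gene, was at 23.93 and 30.5 against 55.79 and 57.29 FPKM (-1.04). Glutathione genes were divided, with 9 of 37 higher and 10 lower, and 5 higher and 4 lower without EPSC library 1. Of the 33 above the filter in both groups, 9 were higher and 8 lower. Gss, which completes glutathione synthesis, was at 44.51 and 63.47 against 14.01 and 20.05 FPKM (1.61), and Gsto1, a glutathione transferase, was at 282.7 and 396.0 against 112.3 and 177.1 FPKM (1.24), while Cth and Chac1 were lower. The call of Gsto1 was lost in 3 of the alternatives. None of these patterns was tested as a group.

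Values of very short RNAs were unstable. Snord32a was at 4416 FPKM in hybrid library 2 and listed at 0 in the other 3 hybrid and EPSC libraries, and Rpph1, the RNA of ribonuclease P, was at 1.484 and 2.216 FPKM in hybrid cells and 38.96 and 15.22 FPKM in EPSCs.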
